A study of Rattus norvegicus with 24 samples.

Results

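The genes described here are 9 genes of the amyloid and tau pathways, chosen by symbol: App, Bace1, Adam10 and Psen2 for amyloid processing, Ide, Mme and Clu for clearance, and Mapt and Bin1 for tau. All 9 were among the 20318 features of the expression table, and all 9 were among the 16119 features whose mean level reached the minimum for testing. The series measured RNA from the hippocampus of female rats by sequencing in 24 libraries, and its title names the ageing female brain and Alzheimer's disease risk.

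The groups differed in ovaries and in 17-beta-estradiol, the estrogen that the labels call E2. Treatment animals (n = 5) lost their ovaries, received vehicle for 3 weeks and then E2 for 2 weeks. Prevention animals (n = 5) lost their ovaries and received E2 for 5 weeks. OVX animals (n = 7) lost their ovaries and received vehicle for 7 weeks. SHAM animals (n = 7) had a sham operation that left the ovaries in place and received vehicle for 7 weeks. Both E2 groups thus also differed from the vehicle groups in weeks of treatment, which these comparisons cannot tell apart from E2. All were 6 months old at surgery, and the labels name neither a strain nor a transgene. The labels do not state that each library came from a different animal, so each p-value measures the spread between these libraries.

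Amyloid beta is cut from the amyloid precursor protein by beta-secretase and then gamma-secretase, while alpha-secretase cuts within the amyloid beta stretch and so prevents its release. Peptidases degrade the released peptide, and extracellular chaperones bind it. Tau is a neuronal microtubule-associated protein that, when heavily phosphorylated, forms the neurofibrillary tangles of Alzheimer's disease in humans. Rat amyloid beta differs in sequence from the human peptide and does not readily form plaques.

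RefSeq promoters on the GRCr8 build, each running from 250 bases before to 50 bases after the gene's start, were found for 7 of the 9 genes and not for Mapt or Clu. The full estrogen response element, an inverted repeat of GGTCA with any 3 bases between the arms and the DNA site that estrogen receptors bind, occurred in 0 of the 7 promoters and in 0.0269% of 33469 promoters. A single arm, GGTCA, read on both strands, occurred in 2 of the 7, Mme and Bin1, and in 40.5% of all promoters. The GC box GGGCGG, also read on both strands, occurred in 5 of the 7, namely App, Adam10, Ide, Mme and Bin1, and in 33.1% of all promoters. A letter match describes the sequence only. The promoters of Adam10 and Ide are shown because the levels of these 2 genes had the highest correlation across libraries among the 9. Capitals mark GC boxes or their reverse complement, and overlapping boxes run together.
Adam10, chr8:80226612-80226911, plus strand: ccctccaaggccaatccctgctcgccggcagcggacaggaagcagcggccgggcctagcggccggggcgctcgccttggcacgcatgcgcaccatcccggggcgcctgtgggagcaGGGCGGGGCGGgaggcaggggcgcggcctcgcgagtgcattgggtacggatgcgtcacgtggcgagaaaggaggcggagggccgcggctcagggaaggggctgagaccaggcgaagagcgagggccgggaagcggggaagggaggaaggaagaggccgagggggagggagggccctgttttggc
Ide, chr1:244514477-244514776, minus strand: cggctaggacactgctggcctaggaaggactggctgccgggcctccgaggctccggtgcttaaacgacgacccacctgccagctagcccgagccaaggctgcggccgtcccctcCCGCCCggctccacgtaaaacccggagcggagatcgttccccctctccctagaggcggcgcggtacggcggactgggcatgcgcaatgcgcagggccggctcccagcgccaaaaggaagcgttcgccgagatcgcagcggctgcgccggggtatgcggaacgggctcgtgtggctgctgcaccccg

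The promoters of Mme and Bin1 are shown because they hold the arm of the estrogen response element, with capitals marking GGTCA or its reverse complement.
Mme, chr2:149872247-149872546, plus strand: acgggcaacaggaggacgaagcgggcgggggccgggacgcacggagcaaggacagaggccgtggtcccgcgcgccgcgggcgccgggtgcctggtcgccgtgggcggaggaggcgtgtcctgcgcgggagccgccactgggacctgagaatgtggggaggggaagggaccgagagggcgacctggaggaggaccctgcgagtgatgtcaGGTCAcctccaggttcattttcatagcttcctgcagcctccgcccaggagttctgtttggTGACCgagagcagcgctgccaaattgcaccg
Bin1, chr18:24283701-24284000, plus strand: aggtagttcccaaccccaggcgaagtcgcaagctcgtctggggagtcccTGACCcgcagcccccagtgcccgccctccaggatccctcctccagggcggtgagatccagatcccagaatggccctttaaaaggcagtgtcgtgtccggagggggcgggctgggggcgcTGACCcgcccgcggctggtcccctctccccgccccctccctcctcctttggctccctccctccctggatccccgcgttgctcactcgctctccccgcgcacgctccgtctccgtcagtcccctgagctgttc

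Values are normalised counts, a level per gene that can be compared between libraries but not between genes. Estimated depth ran from 26.4 to 53.6 M (mega) reads per library. The libraries fell into a high set and a low set by the level of 1 feature, LOC257642, which ran from 16.8 to 19.7 on the log2 scale in 7 libraries and from 14.0 to 15.2 in the other 17. The high set held all 5 Prevention libraries and Treatment replicates 1 and 2, and the low set held every OVX and SHAM library, so that group and set are separated only through the 5 Treatment libraries. High set libraries were also the deeper ones, between 39.8 and 53.6 M reads each, while those of the low set had between 26.4 and 40.1 M. The labels do not name these sets. All 7 markers of hippocampal fields were present in every library, the lowest value being 90.1 normalised counts. Choroid plexus markers, 8 of 9 of which were in the table, varied most: their mean log2 level, called the choroid plexus score, ran from 5.51 to 10.8 in Treatment, from 6.21 to 10.97 in Prevention, from 5.83 to 10.7 in OVX and from 5.45 to 11.8 in SHAM. A score of 8 thalamus markers exceeded 10 in 5 libraries, spread over all 4 groups.

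None of the 54 changes, 9 genes in 6 comparisons, passed the threshold of 0.05 on the p-value adjusted over all 16119 features in limma. The smallest adjusted p was 0.0806, for Bace1 in Prevention against SHAM. Among the 54 changes, 8 had an unadjusted p under 0.05, and the other 46 lay between -0.26 and 0.09 on the log2 scale. For all genes but Mme, the 95% confidence intervals of the 48 changes lay between 0.796-fold and 1.20-fold. The intervals for Mme, the gene with the lowest level and the widest spread, reached from -0.58 to 0.36 on the log2 scale.

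The counts over all features set the scale for these 9 genes. At the adjusted threshold, 0.304% of features were called in Prevention against OVX, 0.354% in Prevention against SHAM and 0.0062% in Treatment against SHAM. In OVX against SHAM, Treatment against OVX and Treatment against Prevention 0% were called, with smallest adjusted p-values of 0.795, 0.258 and 0.0510. At an unadjusted p under 0.05, OVX against SHAM called 6.25% of features and 2 of the 9 genes, and Prevention against OVX called 18.6% and 1 gene. Treatment against OVX called 7.19% and 1 gene, and Treatment against Prevention called 5.38% and 0 genes. Prevention against SHAM called 13.3% and 2 genes, and Treatment against SHAM called 6.1% and 2 genes. With 9 genes, 1 gene is a large share of the list, and these counts are a description only.

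Split by direction, both genes with an unadjusted p under 0.05 in OVX against SHAM were lower, as were 3.37% of features, while 2.88% were higher. The 1 gene in Prevention against OVX was higher, as were 10.1% of features, with 8.56% lower. In Treatment against OVX the 1 gene was lower, as were 3.09% of features, with 4.1% higher, and in Treatment against Prevention 2.76% of features were higher and 2.62% lower. Of the 2 genes in Prevention against SHAM, 1 was among the 7.42% of features that were higher and 1 among the 5.85% that were lower. Both genes in Treatment against SHAM were among the 2.8% of features that were lower, while 3.29% were higher. Groups did not overlap for 1 gene, Bace1 in Treatment against SHAM, and for none of the 9 in the other comparisons. The share of features without overlap was 0.0248% in OVX against SHAM, 1.86% in Prevention against OVX, 0.298% in Treatment against OVX, 1.2% in Treatment against Prevention, 2.48% in Prevention against SHAM and 0.484% in Treatment against SHAM.

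**Figure D1:**
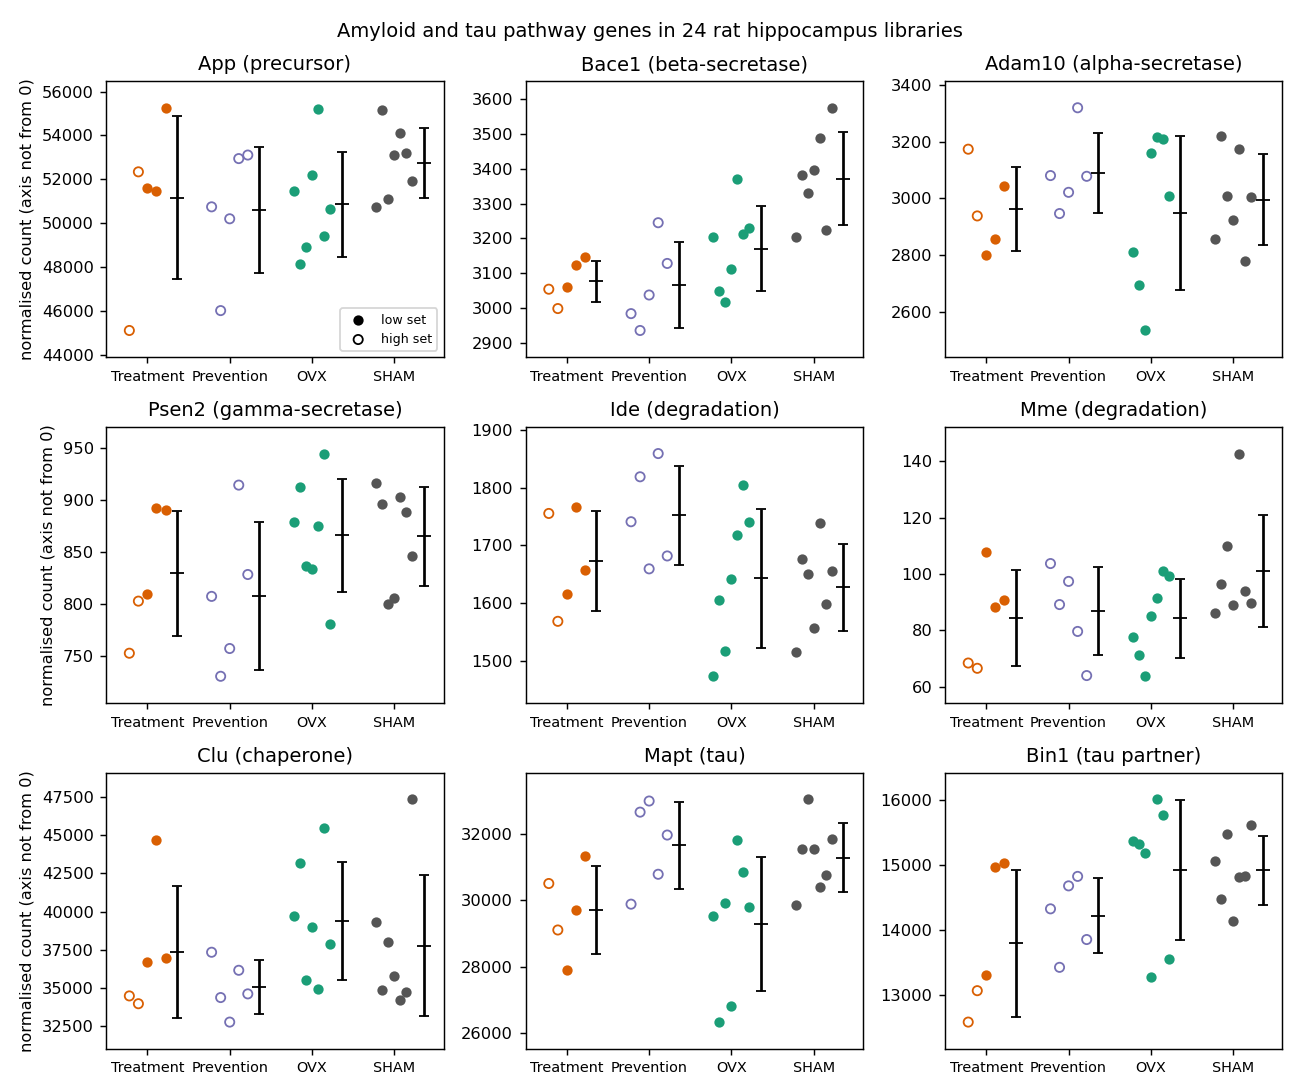
Normalised counts of the 9 genes in each library of the Treatment, Prevention, OVX and SHAM groups, with bars for the mean and SD; the vertical axes do not start at 0. Open points are libraries of the high set and filled points those of the low set. All 5 Treatment points for Bace1 lie below all 7 SHAM points, and the groups overlap in the other panels.

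App encodes the amyloid precursor protein. Its levels were 45112, 52343, 51610.2, 51473 and 55264 in Treatment and 50748, 46019, 50204, 52947 and 53109 in Prevention. They ran from 48141 through a median of 50654 to 55228 in OVX, and from 50755 through 53105 to 55149.5 in SHAM. Every group overlapped every other, and the lowest library was Treatment replicate 1. The 6 changes lay between -0.06 and 0.01 on the log2 scale, and the means followed the order SHAM, Treatment, OVX and Prevention with neighbours closer than their SDs.

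Bace1 encodes beta-secretase, the enzyme that makes the first cut towards amyloid beta. It measured 3054, 2999, 3059.8, 3124 and 3147 in Treatment, with a mean of 3077 ± 59.2 (SD, n = 5). In Prevention it measured 2984, 2936, 3038, 3245 and 3128, with a mean of 3066 ± 123 (SD, n = 5). In OVX it ran from 3018 through a median of 3204 to 3370.2, mean 3171 ± 121, and in SHAM from 3204 through 3381 to 3575, mean 3371 ± 134 (SD, n = 7 each). All 5 Treatment libraries lay below every SHAM library, a lack of overlap shared by 0.484% of features in that comparison. In Prevention, 4 of 5 libraries lay below the lowest SHAM library, and in OVX 3 of 7 did.

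The change of Bace1 was -0.13 on the log2 scale in Treatment against SHAM (SE 0.04, 95% interval -0.20 to -0.06, unadjusted p = 0.00111, limma adjusted p = 0.387). In Prevention against SHAM it was -0.14 (SE 0.04, interval -0.21 to -0.06, unadjusted p = 0.000741, limma adjusted p = 0.0806), and in OVX against SHAM it was -0.09 (SE 0.03, unadjusted p = 0.0116, limma adjusted p = 0.795). These comparisons share the 7 SHAM libraries, so their likeness is not independent. Between Treatment and Prevention the change was 0.01 with an interval of -0.07 to 0.08. With the library set as a term, the Prevention against SHAM change was -0.10 (limma adjusted p = 0.936) and the Treatment against SHAM change was -0.12 (limma adjusted p = 0.88). Leaving out libraries with a choroid plexus or thalamus score over 10 was a setting chosen after seeing the data. The Bace1 change was then -0.05 in OVX against SHAM (unadjusted p = 0.174, limma adjusted p = 0.923). It was -0.12 in Prevention against SHAM (limma adjusted p = 0.311) and -0.11 in Treatment against SHAM (limma adjusted p = 0.643). With either score as a covariate instead, the OVX against SHAM change was -0.09.

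Adam10 encodes the main neuronal alpha-secretase. It measured 3173, 2938, 2801, 2857 and 3044 in Treatment and 3080.1, 2946, 3021, 3319 and 3078 in Prevention. It ran from 2535 through a median of 3007 to 3216 in OVX, and from 2781 through 3004 to 3218 in SHAM. All groups overlapped, and the 2 lowest libraries were OVX libraries. Its largest change in size was 0.07, in Prevention against OVX (limma adjusted p = 0.53).

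Psen2 encodes presenilin 2, a catalytic subunit of gamma-secretase. It measured 753, 803, 809, 892 and 889.6 in Treatment and 807, 730.4, 757, 914 and 828 in Prevention. It ran from 780.3 through a median of 875 to 944 in OVX, and from 800.0 through 889 to 916 in SHAM. Prevention held the lowest library and overlapped both vehicle groups. Its largest changes were -0.10 in Prevention against OVX (unadjusted p = 0.1) and -0.10 in Prevention against SHAM (unadjusted p = 0.103).

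Ide encodes insulin-degrading enzyme, a metallopeptidase that also degrades amyloid beta. It measured 1755, 1569, 1617, 1767 and 1657 in Treatment and 1741, 1819, 1659, 1859 and 1682 in Prevention. It ran from 1474 through a median of 1643 to 1805 in OVX, and from 1515 through 1651 to 1738 in SHAM. In Prevention, 3 of 5 libraries lay above the highest SHAM library, and the groups overlapped. The change in Prevention against SHAM was 0.11 (SE 0.05, 95% interval 0.00 to 0.21, unadjusted p = 0.0459, limma adjusted p = 0.366). It was 0.12 with the library set as a term (SE 0.09, 95% interval -0.07 to 0.32, limma adjusted p = 0.938).

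Mme encodes neprilysin, a membrane peptidase that degrades amyloid beta. It measured 68.5, 66.6, 108, 88.2 and 90.9 in Treatment and 104, 89.2, 97.4, 79.7 and 64.0 in Prevention. It ran from 63.8 through a median of 85.3 to 101.1 in OVX, and from 86.1 through 93.8 to 143 in SHAM. The highest library was SHAM replicate 5, and all groups overlapped. The change in OVX against SHAM was -0.26 (SE 0.14, unadjusted p = 0.0818, limma adjusted p = 0.827), the largest among its 6 changes together with that of Treatment against SHAM, which was also -0.26. In the low set alone the Treatment against SHAM change was -0.06 (limma adjusted p = 0.989). The low set holds every OVX and SHAM library, so the OVX against SHAM change is the same there by construction. With the library set as a term, the Prevention against OVX change was 0.53 (SE 0.27, 95% interval -0.02 to 1.08, limma adjusted p = 0.999).

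Clu encodes clusterin, a secreted chaperone made largely by astrocytes and choroid plexus in the brain. It measured 34493, 33983, 36725, 44671 and 36954 in Treatment and 37346, 34386, 32784, 36168 and 34626 in Prevention. It ran from 34962 through a median of 39003 to 45486 in OVX, and from 34256 through 35775 to 47334 in SHAM. The highest libraries were SHAM replicate 7 and an OVX library, and all groups overlapped. The change in Prevention against OVX was -0.16 (SE 0.08, 95% interval -0.33 to 0.00, unadjusted p = 0.0534, limma adjusted p = 0.277).

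Levels of Clu moved with the choroid plexus score across the 24 libraries, with Pearson r = 0.74 and Spearman rho = 0.73 (permutation tests with 100000 draws, adjusted p = 0.0018 and 0.00315). Without the 2 libraries farthest from the median score r was 0.72, and it was 0.88 within the 17 low set libraries and 0.75 within the 7 high set libraries. With this score as a covariate, the Prevention against OVX change was -0.19 (SE 0.05, limma adjusted p = 0.0426). With the library set as a term it was 0.03 (limma adjusted p = 0.999), and with both it was -0.15 (limma adjusted p = 0.996). Levels in bulk RNA cannot tell fewer cells of a type apart from less RNA per cell.

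**Figure D2:**
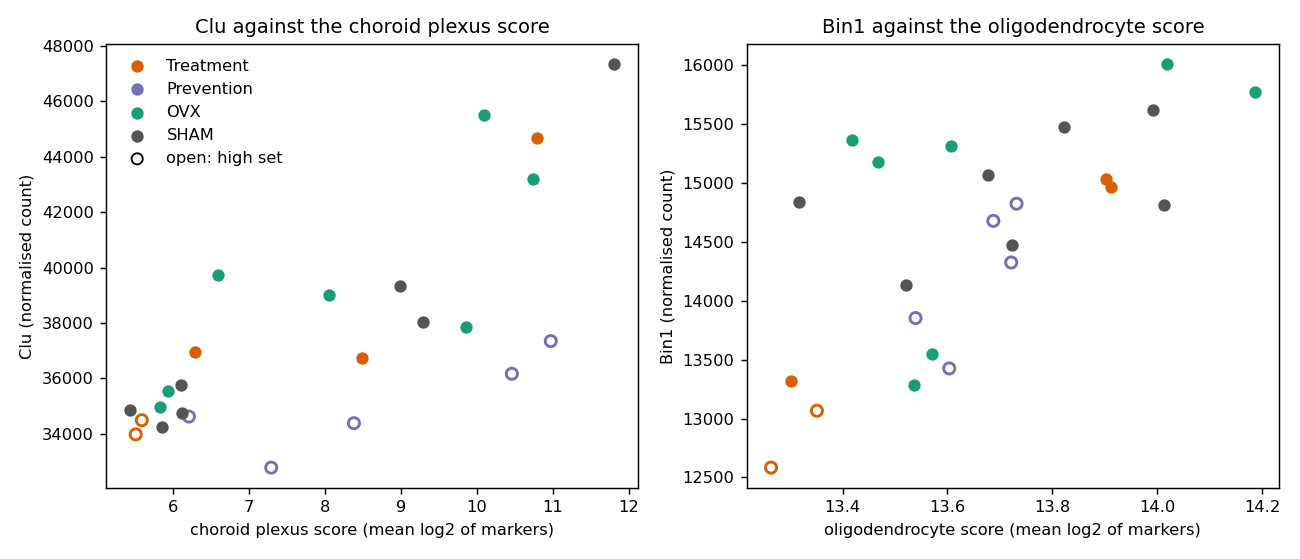
Normalised counts of Clu against the choroid plexus score, and of Bin1 against the oligodendrocyte score, one point per library. Points are coloured by group, with open points for the high set. Clu is higher in libraries of higher choroid plexus score (r = 0.74), and Bin1 in libraries of higher oligodendrocyte score (r = 0.67). Both r values are from log2 levels.

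Mapt encodes tau. It measured 30502, 29102, 27882, 29689 and 31321 in Treatment and 29879.9, 32654, 32988, 30781 and 31963 in Prevention. It ran from 26326 through a median of 29805 to 31814 in OVX, and from 29854 through 31537 to 33038 in SHAM. The 2 lowest libraries of all were OVX libraries, and the groups overlapped. The change in OVX against SHAM was -0.10 (SE 0.04, 95% interval -0.19 to -0.01, unadjusted p = 0.0334, limma adjusted p = 0.795). In Prevention against OVX it was 0.11 (SE 0.05, interval 0.02 to 0.21, unadjusted p = 0.0239, limma adjusted p = 0.196). The OVX libraries enter both comparisons, so the opposite directions are not independent of each other. Under quantile normalisation the changes were -0.06 in OVX against SHAM (limma adjusted p = 0.862) and 0.03 in Prevention against OVX (limma adjusted p = 0.755). The Prevention against OVX change of Mapt was 0.10 with the library set as a term (SE 0.09, 95% interval -0.08 to 0.29, limma adjusted p = 0.999).

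Bin1 encodes amphiphysin 2, an endocytic membrane adaptor that binds tau and is abundant in oligodendrocytes. It measured 12583, 13066, 13314, 14963 and 15033 in Treatment and 14324, 13425, 14678, 14823 and 13853 in Prevention. It ran from 13280.4 through a median of 15315 to 16008 in OVX, and from 14133 through 14834 to 15619 in SHAM. The lowest 2 libraries were Treatment replicates 1 and 2, both of the high set, and the groups overlapped. The change was -0.11 in Treatment against OVX (SE 0.05, unadjusted p = 0.0389, limma adjusted p = 0.69) and -0.12 in Treatment against SHAM (SE 0.05, unadjusted p = 0.0361, limma adjusted p = 0.763). In the low set libraries alone, these changes were -0.05 and -0.05, with adjusted p-values of 1 and 0.978 in limma. In Treatment against Prevention the change was -0.05 over all libraries, and -0.15 within the 7 high set libraries (SE 0.06, unadjusted p = 0.0420, limma adjusted p = 0.978).

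Bin1 levels moved with a score of 10 oligodendrocyte markers across the 24 libraries, with r = 0.67 and rho = 0.61 (permutation tests with 100000 draws, adjusted p = 0.00877 and 0.0376). Without the 2 farthest libraries r was 0.57, and it was 0.58 in the low set and 0.93 in the high set. The score ran from 13.3 to 13.9 in Treatment, from 13.5 to 13.7 in Prevention, from 13.4 to 14.2 in OVX and from 13.3 to 14.0 in SHAM. With the score as a covariate, the Treatment against OVX change of Bin1 was -0.08 (limma adjusted p = 0.62). Among 45 relations of the 9 genes with 5 marker scores, those of Clu and Bin1 were the 2 that passed.

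**Figure D3:**
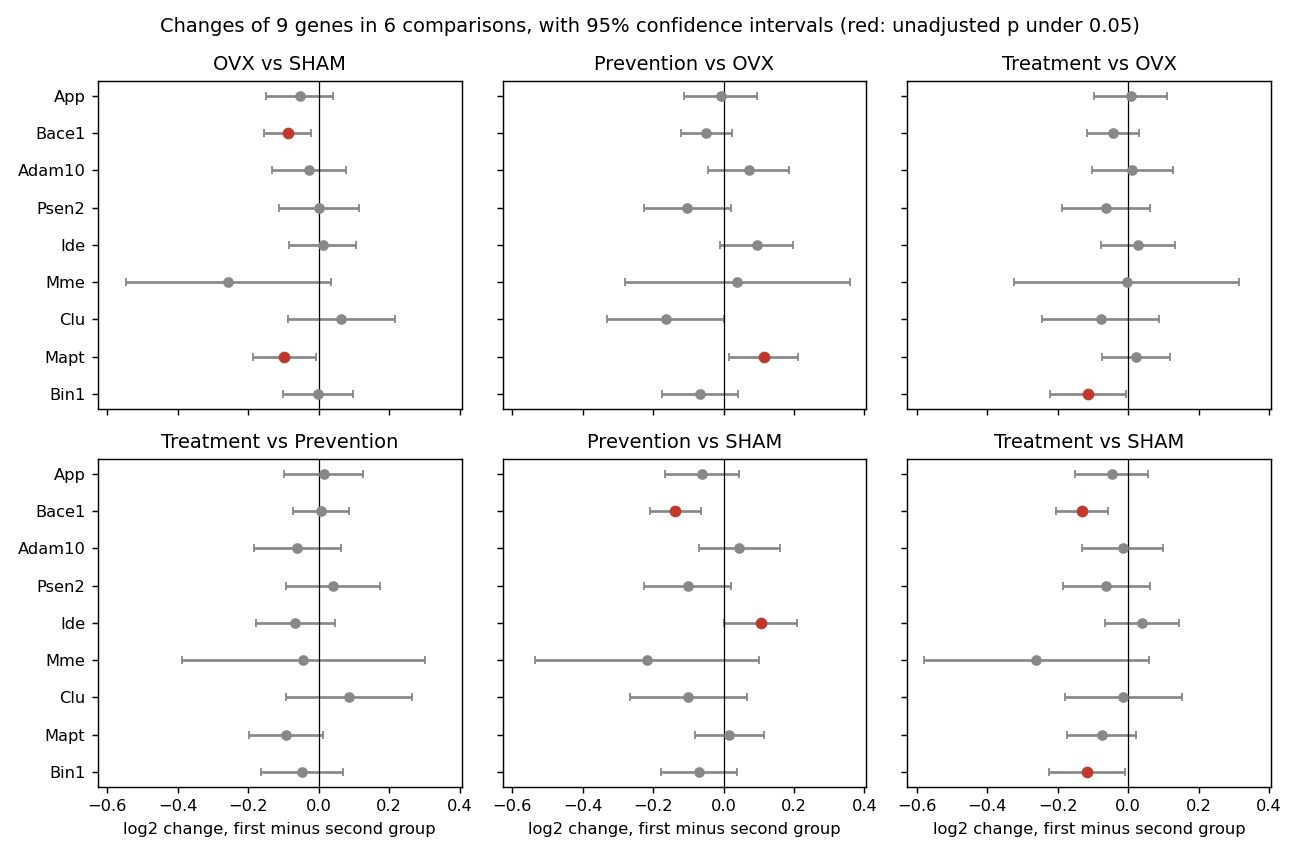
Log2 changes of the 9 genes with 95% confidence intervals in the 6 comparisons. Red points mark an unadjusted p under 0.05 and grey points the rest. The 8 red points are Bace1 in 3 comparisons with SHAM, Mapt and Bin1 in 2 comparisons each, and Ide in 1, and no interval outside those of Mme leaves the range of 0.796-fold to 1.20-fold.

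The 9 genes were also described across libraries, with n = 24 points that share library preparation, depth and group. Adam10 and Ide had the highest correlation of levels, with r = 0.68, which was 0.67 with group means removed and 0.66 in the low set. Psen2 and Bin1 gave 0.66, App and Bace1 gave 0.57, and Mapt and Clu gave the lowest value, -0.31. Mapt and Clu gave -0.17 with group means removed and -0.19 in the low set. Within the low set the highest value was 0.68, for Bace1 and Mapt, and the lowest -0.54, for App and Clu. Among 12090 candidate features with a mean of at least 100, those of highest r with each gene, called closest, are given as a description.

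For processing, App was closest to Prkar1a, a regulatory subunit of protein kinase A (r = 0.78), Amph (r = 0.74) and Klc2, a kinesin light chain (r = 0.73). Bace1 was closest to Nanp (r = 0.75), Vti1a (r = 0.68) and Ermn, an oligodendrocyte cytoskeletal protein (r = 0.68). Adam10 was closest to Neo1, a guidance receptor (r = 0.86), Dnajc13 (r = 0.86) and Slc22a23 (r = 0.85), and Psen2 to R3hcc1 (r = 0.81) and Ubald2 (r = 0.77). For clearance, Ide was closest to Wwp1, a ubiquitin ligase (r = 0.86), Zdhhc20 (r = 0.85) and Ercc6l2 (r = 0.85). Mme was closest to Hs3st1 (r = 0.70), RT1-CE10 (r = 0.66) and Rasgrp3 (r = 0.65), and Clu to Tcn2, a vitamin B12 carrier (r = 0.91), Ltbr (r = 0.90) and Fuca1, a lysosomal fucosidase (r = 0.87). For tau, Mapt was closest to Nvl (r = 0.76), Kcna1, a potassium channel (r = 0.74), and Shprh (r = 0.70), and Bin1 to Josd2 (r = 0.85), Yipf3 (r = 0.82) and Sept4 (r = 0.81). The values for Mme and Bace1 were lower than those for Clu, Adam10 and Ide.

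The wider pathway was read from 3 lists: processing (22 of 22 genes tested), clearance (22 of 24) and tau (27 of 28). None of their genes passed the adjusted threshold in any of the 6 comparisons. Medians of the changes lay between -0.05 and 0.02 on the log2 scale over all lists and comparisons, and medians over all features lay within 0.005 of 0.

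In OVX against SHAM, 0 genes of the tau list were higher and 7 were lower at an unadjusted p under 0.05, against 2.88% and 3.37% of all features. The 7, named after their values were seen, were Mapt, Map1a, Map1b and Map2, which bind microtubules, and Cdk5r1, Ttbk1 and Ttbk2, which act in tau phosphorylation. Under quantile normalisation 2 were higher and 5 lower, beside 3.09% and 3.06% of features. The low set holds every OVX and SHAM library, so this comparison's changes are the same within it and only the estimated spread differs. There 0 were higher and 5 lower, beside 2.54% and 3.50% of features. No gene of the cell type marker lists passed the adjusted threshold in this comparison. The median change was -0.08 for all 5 neuron markers, -0.09 for all 7 hippocampal field markers, 0.51 for 8 of 9 choroid plexus markers and 0.16 for all 8 thalamus markers. The mean log2 level of the neuron markers ran from 14.2 to 14.5 in OVX and from 14.4 to 14.6 in SHAM, and that of the field markers from 10.9 to 11.3 in OVX and from 10.8 to 11.6 in SHAM. Their part in the tau list's counts was not tested. Map2, a dendritic microtubule protein and the gene of smallest p in the lists for this comparison, averaged 57635 ± 10115 in OVX and 72114 ± 9934 in SHAM (SD, n = 7 each), a change of -0.33 (SE 0.10, unadjusted p = 0.00396, limma adjusted p = 0.795).

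In Prevention against OVX, the tau list had 9 genes higher and 1 lower at an unadjusted p under 0.05, against 10.1% and 8.56% of all features. The OVX libraries enter this comparison and OVX against SHAM, so the opposite directions are not independent of each other. Under quantile normalisation 6 were higher and 1 lower, beside 8.58% and 10.2% of features. With the library set as a term there were 0 higher and 0 lower, beside 1.41% and 2.15% of features. The list's median change was 0.02 without this term and 0.05 with it. The SE was wider with the term, for Mapt 0.09 against 0.05 without it. In the same comparison the median change was -0.02 for the neuron markers, 0.13 for the hippocampal field markers, 0.48 for the choroid plexus markers and 0.35 for the thalamus markers, and their part in the counts was not tested. Dyrk1a, a kinase that phosphorylates tau and other proteins, averaged 2252 ± 121 in Prevention (n = 5) and 1882 ± 142 in OVX (SD, n = 7), and its ranges of 2126 to 2387 and 1715 to 2048 did not overlap. Such a lack of overlap was found in 1.86% of features in this comparison. Its change was 0.26 (SE 0.06, unadjusted p = 0.000187, limma adjusted p = 0.0510), and -0.00228 with the library set as a term (SE 0.09).

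The clearance list had 6 of 22 genes higher and 4 lower in Prevention against OVX at an unadjusted p under 0.05, beside 10.1% and 8.56% of all features. Under quantile normalisation 4 were higher and 5 lower, beside 8.58% and 10.2% of features. With the library set as a term 2 were higher and 0 lower, beside 1.41% and 2.15% of features. In Treatment against OVX, Abca1, a cholesterol efflux transporter, averaged 3413 ± 368 in Treatment and 2848 ± 465 in OVX, a change of 0.27 (SE 0.09, unadjusted p = 0.00703, limma adjusted p = 0.619). In Treatment against Prevention, Cdk5r2, an activator of the tau kinase Cdk5, averaged 5277 ± 484 in Treatment and 6344 ± 639 in Prevention, a change of -0.26 (SE 0.09, unadjusted p = 0.00766, limma adjusted p = 0.709). Its ranges did not overlap, as for 1.2% of features.

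Of the 22 genes of the processing list, 2 were lower at an unadjusted p under 0.05 in OVX against SHAM, beside 3.37% of all features, and 2 in Treatment against SHAM, beside 2.8%. In Prevention against OVX 1 was higher and 1 lower, beside 10.1% and 8.56% of features, and in Prevention against SHAM 1 was higher and 1 lower, beside 7.42% and 5.85%. In Treatment against OVX and Treatment against Prevention 0 were called, beside 7.19% and 5.38% of features. Of the 27 genes of the tau list, 3 were higher and 2 lower in Treatment against OVX, beside 4.1% and 3.09% of features. In Treatment against Prevention 0 were higher and 4 lower, beside 2.76% and 2.62%. In Prevention against SHAM 3 were higher and 1 lower, beside 7.42% and 5.85%, and in Treatment against SHAM 0 and 1, beside 3.29% and 2.8%.

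**Figure D4:**
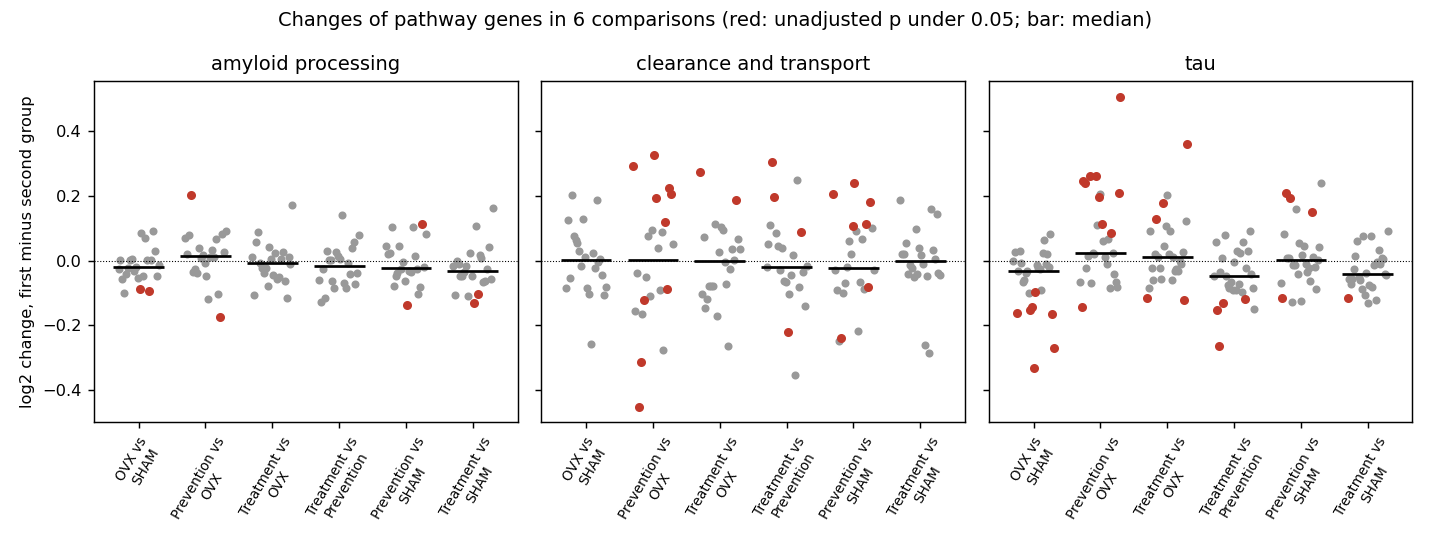
Log2 changes of the genes of the processing, clearance and tau lists in the 6 comparisons, red where the unadjusted p is under 0.05, with a black bar at each list's median. The tau list has 7 red points below 0 in OVX against SHAM and 9 above 0 in Prevention against OVX. Both comparisons use the OVX libraries, so these counts are not independent of each other.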

How the data were processed

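Hippocampal RNA of 24 libraries was extracted with TRIzol and columns, per the labels' protocols. The deposited table holds normalised counts, a signal that the authors made with kallisto 0.43 and DESeq2, per the submitters' processing notes; no build, annotation, strand setting or batch is named there. Column totals were 35.4 to 38.8 M. Values at 2 reads were 1.99 to 2.01 times the smallest step, from which depth was estimated, but between 40.0% and 78.0% of low values were within 0.05 of whole reads, so no count test was run. Of the 9 genes, 4 overlap a protein-coding gene in RefSeq, and reads shared between them could not be checked.

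Values were analysed as log2(normalised count + 1), which slightly understates changes of low genes, for features with a mean of at least 10. One fit in limma 3.58.1 (R 4.3.3) held all libraries, with a mean per group, an empirical Bayes trend, 6 contrasts and Benjamini-Hochberg adjustment at 0.05. It was run on simulated data of independent libraries, with changes added in Prevention only. The simulation held no library sets and no differences in tissue content, so it does not bear on their effects. The high set is the libraries with LOC257642 above 16. Figures used Python 3.11.15 and matplotlib 3.10.9.

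The members and lists were chosen with earlier results of these data known. Named were the 9 genes, the list gene of smallest p per comparison, the 3 features most like each gene over libraries, and those said to be chosen after their values were seen; 1 of these features is not reported here. Same-numbered libraries did not deviate together (30 pairs, median r = -0.12), so the numbers were not used as pairs. Sorl1, Ace and Ppp2ca were not analysed here.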

Additional observations from a re-analysis of the deposited data

Results flagged for a closer look

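Of 36 combinations of gene and group, 3 held a library far from the rest by Dixon's criterion, which chance meets in about 1 in 20 groups. Mme measured 143 in SHAM replicate 5, against 110 in the next SHAM library; that library's thalamus score was 10.7. Clu measured 44671 in Treatment replicate 6, where the choroid plexus score was 10.8, against 36954 in the next Treatment library. Clu measured 47334 in SHAM replicate 7, where the choroid plexus score was 11.8, against 39323 in the next SHAM library. The part of the scores in these values was not tested.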

How the results depend on the processing

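The counts of the 9 genes past the adjusted threshold were recomputed 238 times under 17 settings and after leaving out each of the 24 libraries, and 237 equalled the reported count of 0. The exception was Prevention against OVX with the choroid plexus score as a covariate, where the count was 1, Clu. Of 515 recomputed gene changes, 501 kept their direction and side of the threshold and 2 reversed. Both reversed with the library set as a term in Prevention against OVX, Dyrk1a to -0.00228 (SE 0.09) and Clu to 0.0347 (SE 0.14). The other 12 were called where the reported change was not, 11 of them Dyrk1a, whose adjusted p in limma ran from 0.0101 to 0.999 over the settings and from 0.0235 to 0.139 over the libraries left out. With the replicate block the count of the 9 genes was 0 in all 6 comparisons, and over all features the block gave 3 in Prevention against OVX (reported 49) and 4 in Prevention against SHAM (reported 57). The library set as a term gave 0 in both, while the thalamus score as a covariate gave 602 and 145, the choroid plexus score 273 and 135, and a fit of only the groups compared 5 and 156. Leaving out a library gave 1 (without Prevention replicate 3) to 481 (without OVX replicate 7) in Prevention against OVX, and 10 (without Prevention replicate 2) to 153 (without SHAM replicate 5) in Prevention against SHAM. The 2 added settings were chosen after seeing the data, and both gave 0 of the 9 genes. The first left out libraries with a choroid plexus or thalamus score over 10, which kept 17 libraries, 3 of them Prevention. The second combined the library set with the choroid plexus score. Over all features, each gave 0 in Prevention against OVX and 0 in Prevention against SHAM. Depth is estimated, so counting error was not separated from the spread between libraries.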
